A study of Mus musculus with 10 samples.

Results

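The standing difference between Lewis lung carcinoma (LLC) cells that stably express TDAG8 and control LLC cells was measured without acid, on 6 of the 10 arrays of the study. LLC is a mouse lung tumour line of the C57BL/6 strain. The TDAG8 line carried the receptor and the control line carried the control vector, and both were kept without serum in medium of pH 7.4 with 0.1% bovine serum albumin for 12 h before any treatment. The 6 arrays formed 3 matched pairs of the lines: before treatment, after 4 h in fresh medium at pH 7.4, and after 12 h in it. The other 4 arrays, both lines at pH 6.4 for 4 h and 12 h, took no part in the comparison and are set beside it. Each Affymetrix Mouse Genome 430 2.0 array received RNA mixed from 4 independent cultures, so there were no replicate arrays and the matched conditions stood in for them. The sources used here do not say whether a line is 1 clone or a pool of transfected cells, or which promoter drove the receptor. With 1 line of each kind, the effect of the receptor and other differences between the lines cannot be told apart.

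TDAG8, encoded by Gpr65, is a G protein-coupled receptor that senses protons outside the cell. Acid pH protonates it, and it then acts through the stimulatory G protein on adenylyl cyclase, which raises cyclic AMP and turns on protein kinase A and the transcription factor CREB. At neutral or slightly alkaline pH the receptor is mostly inactive.

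The receptor itself gave no check of the labels. The Gpr65 probe set read between 0.3 and 5.3 on all 10 arrays, in both lines, and did not tell the lines apart. Whether this probe set detects the introduced receptor is not known from the sources used here. Probe sets of Gpr4 (0.8 to 3.2) and Gpr132 (0.9 to 11.7 and 0.6 to 6.8), the related proton sensors on the array, were as dim, and no member of this receptor family passed the filter on low values. The cells read as a mesenchyme-like tumour line by some markers, with some keratin. Vim, the mesenchymal intermediate filament gene, read 6139.9 to 9227 and Krt8, an epithelial keratin gene, 1526.9 to 2098.9 on the 6 arrays. Of 12 markers of fibroblast and mesenchyme 3 were below the filter, Col1a1 (0.4 to 6.4), Thy1 (1 to 8.5) and Fap (0.7 to 5.3). Col1a2 read 6.7 to 16.5, while Pdgfra read 853.3 to 1617.4 and Prrx1 1371.9 to 1892.9. The 12 summed to 15552.2 to 19075.8 in the TDAG8 line and 17855 to 20966.8 in the control line, most of it Vim and S100a4. Single markers differed in both directions. Snai2 read 758.3 to 900.9 in the TDAG8 line against 1323 to 1354.4, and Twist1 407.2 to 411.8 against 297 to 381.8. Of 15 markers of lung and other epithelium 10 were below the filter, Sftpc (0.5 to 10.4) and Nkx2-1 (0.5 to 3.1) among them, while Elf3 read 33.9 to 86, Krt18 35.5 to 71.2, Epcam 25.9 to 45.1 and Sftpb 14.2 to 28.6. Their summed signal was 2206.9 to 2310.6 in the TDAG8 line and 1742.4 to 2134.5 in the control line, most of it Krt8. For Krt18 the lines did not overlap, at 62.3 to 71.2 in the TDAG8 line against 35.5 to 40.3. Of 10 leukocyte markers 5 were below the filter, with Ptprc at 2.4 to 6.3, while Cd14 read 44.6 to 71.7 and Csf1r 24 to 35.2. Their sum was 139.1 to 161.4 against 114 to 130.8. The 8 endothelial markers summed to 31.9 to 38.3 against 26.1 to 36.6, with Pecam1 at 0.8 to 2.2. The part of other cell types in the results was not tested. The Y-linked genes Kdm5d, Eif2s3y and Uty were read in both lines, at 73.7 to 87.4 and 62.9 to 80.9, 186 to 207.4 and 161.7 to 220.9, and 59.3 to 78.1 and 36.4 to 61.4 for the TDAG8 and control lines in that order.

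The genes that passed the test of the line difference, given below, were Mmp3 and the neighbours Tmem176a and Tmem176b. Mmp3 encodes stromelysin-1, a matrix metalloproteinase that is secreted as a proenzyme and cleaves many matrix proteins. Tmem176a and Tmem176b encode small proteins with 4 transmembrane segments. The upstream sequences of these genes are shown because all of the passing genes lie at these 2 places in the genome. RefSeq gives them on GRCm38.p6, and capitals mark the AP-1 motif TGANTCA, which Fos and Jun factors bind, and the letters TATAAA. The 250 bases before the starts of Mmp3 (chr9:7445572-7445821, plus strand) and of its neighbour Mmp10 (chr9:7502092-7502341, plus strand) read
Mmp3: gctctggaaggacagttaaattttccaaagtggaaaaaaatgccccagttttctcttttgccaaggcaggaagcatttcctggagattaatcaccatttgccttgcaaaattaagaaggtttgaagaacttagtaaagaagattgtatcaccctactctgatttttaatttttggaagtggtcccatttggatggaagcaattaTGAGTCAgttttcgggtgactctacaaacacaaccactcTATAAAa
Mmp10: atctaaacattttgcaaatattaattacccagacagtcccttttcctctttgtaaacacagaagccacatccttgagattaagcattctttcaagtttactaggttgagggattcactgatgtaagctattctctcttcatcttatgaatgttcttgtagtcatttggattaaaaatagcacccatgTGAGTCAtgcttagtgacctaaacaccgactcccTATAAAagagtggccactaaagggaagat
Both windows held 1 AP-1 motif and 1 TATAAA, and neither held the CRE TGACGTCA, which CREB binds, or the CRE half-site TGACG. Searched on both strands, the shares of 32851 RefSeq promoter windows of 250 bases with these letters were 6.75% for AP-1, 12.4% for TATAAA, 1.55% for the CRE and 17.8% for its half-site, and every CRE also counts as a half-site.

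Tmem176a and Tmem176b lie head to head, with their nearest annotated starts 109 bases apart and the genes read away from each other. The 108 bases between the starts (chr6:48841375-48841482, plus strand, from the Tmem176b side to the Tmem176a side) are shared upstream sequence of both genes and read
Tmem176b to Tmem176a: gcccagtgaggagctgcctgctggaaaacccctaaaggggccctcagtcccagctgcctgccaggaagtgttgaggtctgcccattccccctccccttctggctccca
None of the 4 motifs was in this stretch, which says only that these letters are not there. Of windows of 108 bases, 3.01% held the AP-1 motif, 5.87% TATAAA, 1.2% the CRE and 11% the half-site. RefSeq lists 2 starts for Tmem176a and 3 for Tmem176b, and which of them these cells used was not measured.

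Values are given as the deposited signal, a linear brightness summarised per probe set, and as the log2 difference, TDAG8 minus control, of log2(signal + 2.36) after quantile normalisation. This scale understates the difference of dim genes. Of 12163 genes tested, 3 passed limma's moderated test at a Benjamini-Hochberg adjusted p under 0.05 (0.0247%), and all 3 were higher in the TDAG8 line. None passed as lower (0%), and 975 genes were lower at an unadjusted p under 0.05 (8.02%) against 1041 higher (8.56%). Together these were 2016 genes (16.6%), where 608 would be expected without any difference. The fit had 2 residual degrees of freedom, and the p-values measure only the spread of the line difference over the 3 conditions. The number of genes that passed moved strongly with the filter and the variance model: it was 0 when no gene was filtered out, 230 when genes below the 60th percentile were left out, and 641 with a trended, robust variance.

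Mmp3 had signals of 192.5 before treatment, 212.5 at 4 h and 273.2 at 12 h in the TDAG8 line. In the control line it read 16.8, 24 and 26.6 on the matched arrays. The lines did not overlap, and the lowest TDAG8 array was far above the highest control array. The fitted difference was 3.18 (SE 0.10, n = 3 pairs), 9.09-fold on this scale, with an adjusted p of 0.0432 by limma. The pairs gave 3.25, 2.97 and 3.34. At pH 6.4 the signals were 180.8 and 113.4 against 28.2 and 13, which gave 2.65 at 4 h and 2.80 at 12 h. Mmp3 kept its direction in each of the 16 alternatives, with a fitted difference between 2.22 and 3.29, and lost the call with no filter, with the pseudocount at the 5th percentile and when any 1 pair was left out.

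Tmem176b read 796.2, 796.7 and 733.4 with TDAG8 against 169.1, 179.5 and 143.1 in control cells, in the order before treatment, 4 h and 12 h. Its fitted difference was 2.29 (SE 0.08, n = 3 pairs), 4.88-fold, with an adjusted p of 0.0432 by limma. Tmem176a read 371.4, 378.9 and 387.9 against 82.5, 78.9 and 96.2. Its difference was 2.12 (SE 0.08, n = 3 pairs), 4.35-fold, with the same adjusted p, and both of its other probe sets above the filter had the same sign. The lines did not overlap for either gene, and the pairs spanned 2.19 to 2.40 for Tmem176b and 2.03 to 2.23 for Tmem176a. In the pH 6.4 pairs, which the comparison did not use, Tmem176b differed by 2.13 and 1.93 and Tmem176a by 2.07 and 2.37. Over the 16 alternatives the fitted difference stayed between 2.10 and 2.33 for Tmem176b and between 1.81 and 2.23 for Tmem176a, and both lost the call in the settings in which Mmp3 did and with the values as deposited.

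**Figure D1:**
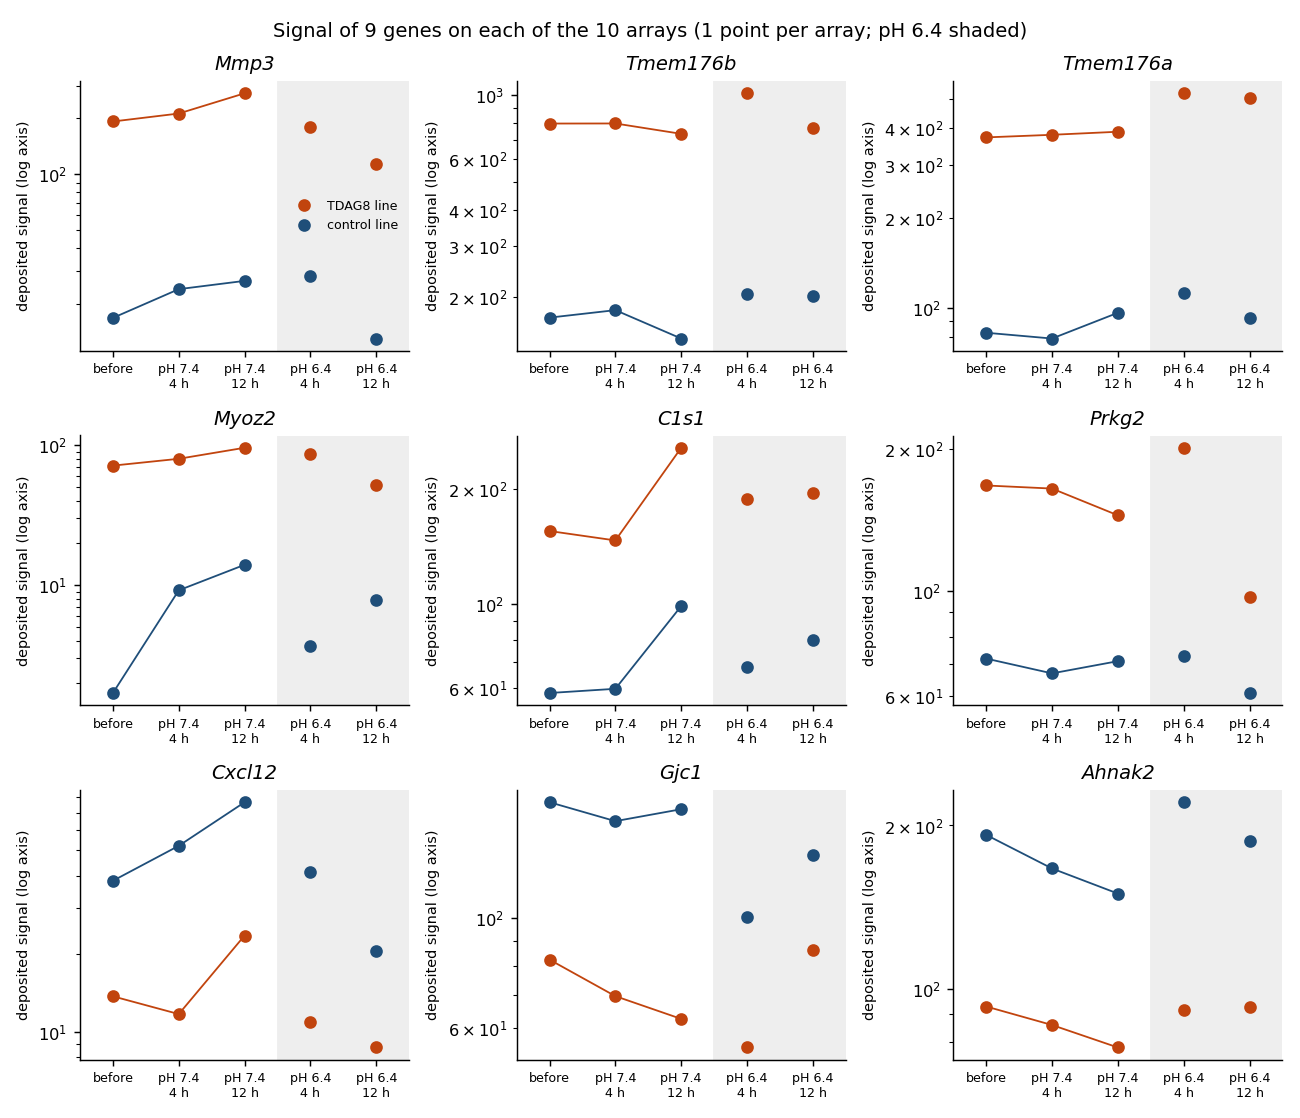
Deposited signal (log axis) of 9 genes on each of the 10 arrays, 1 point per array, with the TDAG8 line in orange, the control line in blue, lines joining the arrays without acid and the pH 6.4 arrays shaded. Mmp3, Tmem176b and Tmem176a passed the test and the lines lie apart at every condition; the other 6 genes did not pass.

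Tmem176a and Tmem176b are neighbours and shared the difference, while the other genes described beside the passing ones were dim or differed little. Mmp3 lies in a cluster of metalloproteinase genes, and Mmp13, Mmp12, Mmp1a, Mmp1b, Mmp10, Mmp8, Mmp20 and Mmp7 were all below the filter, with no signal above 12.8 on the arrays without acid. Mmp10, whose upstream window holds the same motifs as that of Mmp3, read 2.1 to 9.5 in the TDAG8 line and 6.9 to 11.6 in the control line. At such dim values a line difference of these cluster genes cannot be read. Dcun1d5, the nearest bright neighbour, differed by 0.22 with signals of 534 to 621 against 442.8 to 546. Beside Tmem176a and Tmem176b, the Gimap genes of immune GTPases were dim, with Gimap3 at 2.8 to 10.9 against 9.8 to 16.5. Gpnmb, a bright gene on the same chromosome, read 1094.4 to 1115.8 in the TDAG8 line and 1189.3 to 1311.3 in the control line, a difference of -0.11.

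Beyond the passing genes, direction was shared by many genes and large size by few. In 3 of 3 pairs 5227 genes had the same sign (43%), of which 2476 were higher in the TDAG8 line (20.4%) and 2751 lower (22.6%). A difference of at least 1 in every pair was seen for 29 genes (0.238%), 24 higher (0.197%) and 5 lower (0.0411%). Among the 8403 genes with a mean signal of at least 50 in the higher line there were 15 (0.179%), 13 higher (0.155%) and 2 lower (0.0238%). Across all genes tested, the difference in one pair correlated with that in another at 0.23 to 0.26, a description over genes that share the arrays and are not independent.

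Of the genes with a higher signal that did not pass, Myoz2, which encodes a Z-disc protein of muscle that binds calcineurin, was the furthest apart. It read 71.5, 80 and 95.9 with TDAG8 against 1.7, 9.2 and 14 in control cells. The lines did not overlap, but the dim control values made the pairs unequal, at 4.14, 2.64 and 2.63. The fitted difference was 3.14 (SE 0.36, adjusted p = 0.157 by limma).

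C1s1, a serine protease of the first complement component, read 155.1, 146.5 and 256.7 against 58.2, 59.7 and 98.5. The difference was 1.31 (SE 0.08, adjusted p = 0.126 by limma), and both lines had their highest signal at 12 h. Islr, which encodes a secreted protein with leucine-rich repeats, read 55, 62.4 and 109.1 against 16.8, 22.8 and 49.5, a difference of 1.29. It too was highest at 12 h in both lines. Serpinb6b, of the clade of intracellular serine protease inhibitors, read 268.8, 280.2 and 343.3 against 98.7, 127.9 and 161.9, a difference of 1.20.

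Acap1, a GTPase-activating protein for the trafficking GTPase Arf6, read 149.3, 134.8 and 172.6 against 61, 60.2 and 62.5. Its difference was 1.25, and all 3 of its other probe sets above the filter had the same sign. Ptgis, which makes prostacyclin, a ligand that raises cyclic AMP through its own receptor, read 59.7, 69.9 and 45.7 against 18.6, 24.3 and 21, a difference of 1.28. Prkcb, a protein kinase C isoform, read 183.3, 176.8 and 201 against 82.3, 76.7 and 82.9, a difference of 1.17. Prkg2, a cyclic GMP-dependent protein kinase, read 167.1, 164.6 and 144.5 against 71.9, 66.9 and 71, a difference of 1.13. Pcdh7, a protocadherin of cell contacts, read 134.1, 133.7 and 123.1 against 48.7, 61.9 and 53.4, a difference of 1.20 that became 0.67 with the mean of all its probe sets. In these 5 genes the lines did not overlap on the 6 arrays, and the smallest pair difference was 1.03 or more. Both follow largely from how the genes were picked, by their pair differences on these same arrays.

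In the lower direction Cxcl12, the chemokine that binds Cxcr4 and Ackr3, read 13.7, 11.7 and 23.5 with TDAG8 against 38.2, 52.1 and 76.7 in control cells. The lines did not overlap, and in both the highest signal was at 12 h. The difference was -1.68 (SE 0.15, adjusted p = 0.130 by limma), a 3.20-fold lower value, and its 1 other probe set above the filter had the same sign. Gjc1, which encodes the gap junction protein connexin 45, read 82.5, 69.6 and 62.6 against 171.8, 157.3 and 166.3, a difference of -1.24 (SE 0.10). Ahnak2, a large scaffold protein gene, read 92.9, 85.9 and 78.1 against 192.2, 166.7 and 149.9, a difference of -1.01.

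Another 9 genes with a lower signal were named, and the lines did not overlap on the 6 arrays for any of them. They were picked by their pair differences on these same arrays, so this separation is no separate support. The share of all genes with such a separation was not computed. Dner, a transmembrane protein with EGF-like repeats that has been described as a Notch ligand, read 45.8, 51.4 and 64.1 against 108.1, 106.3 and 104.4, a difference of -1.01 that narrowed from -1.27 before treatment to -0.71 at 12 h. Fabp5, which binds fatty acids, read 181.9, 212.7 and 189.2 against 338.9, 358.8 and 327.5, a difference of -0.84. Tk1, the thymidine kinase of S phase, read 438.8, 406.6 and 277.2 against 699.7, 637.3 and 457.5, a difference of -0.69. Recql4, a DNA helicase, differed by -0.73, and Zc4h2, a zinc finger gene, by -0.90. Nexn, an actin-binding protein of the Z-disc, differed by -0.69 and Zfp946 by -0.63. Tmem177 differed by -0.69, but its 1 other probe set had the opposite sign. Lgr4, a receptor for R-spondins that amplifies Wnt signals, read 201.5, 225 and 276.7 against 292.3, 343.3 and 417.1, a difference of -0.59 that turned to 0.09 when all of its probe sets were averaged.

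**Figure D2:**
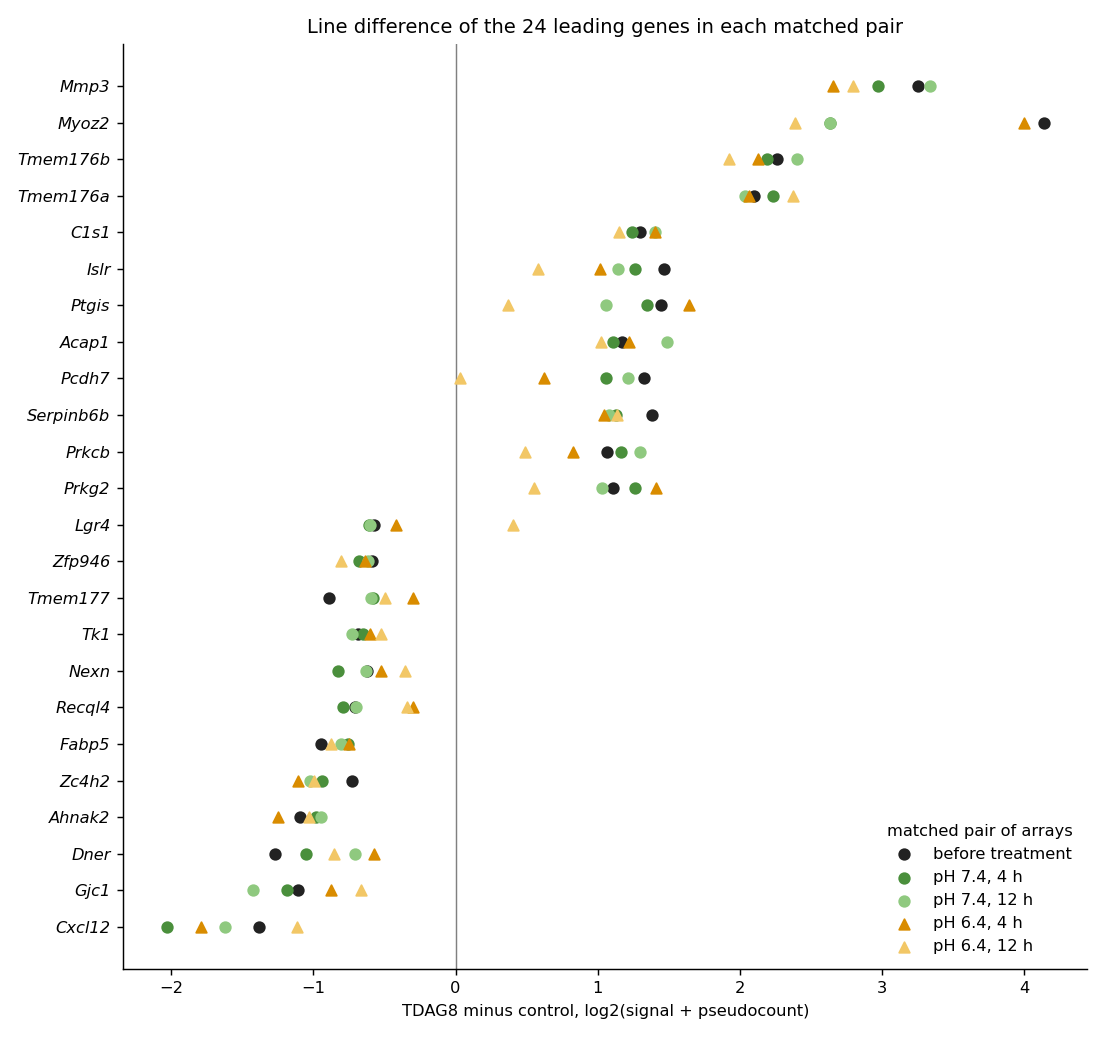
Line difference (TDAG8 minus control, log2 scale) of the 12 leading higher and 12 leading lower genes in each matched pair, with circles for the 3 pairs without acid and triangles for the 2 pairs at pH 6.4. Only Mmp3, Tmem176b and Tmem176a passed the test, and Lgr4 is the gene with a pH 6.4 point on the other side of 0.

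The genes of the pathway that TDAG8 uses were examined next, from the G protein to the targets. No gene of any list described from here on passed, apart from Mmp3, Tmem176a and Tmem176b, so a list is described by the members with 1 direction in 3 of 3 pairs, to be read against the 20.4% higher and 22.6% lower of all genes, and by its median difference, to be read against -0.0047 over all genes tested. Of 22 tested genes for the G protein Gs, adenylyl cyclases, phosphodiesterases and protein kinase A, 12 were higher in 3 of 3 pairs and 2 lower, with a median of 0.16. At an unadjusted p under 0.05, 7 were higher and 1 lower. Pde4b, a phosphodiesterase that degrades cyclic AMP, read 103.4, 130.5 and 170.8 in the TDAG8 line against 68.8, 71.4 and 111.5, a difference of 0.64 (SE 0.10). Both of its other probe sets above the filter had the same sign, but the mean of all its probe sets, dim ones included, gave 0.06. Pde3b, another cyclic AMP phosphodiesterase, read 752.1, 840.8 and 1028.4 against 515.1, 614.4 and 704.9, a difference of 0.54 (SE 0.07). Adcy7, an adenylyl cyclase, read 689.5, 727.5 and 786.5 against 523.8, 496.9 and 527.9, a difference of 0.53 (SE 0.08). Genes for making and for degrading cyclic AMP were thus among the members with higher values, while Adcy6, another cyclase, differed by -0.27. Rapgef3, which encodes the cyclic AMP-activated exchange factor Epac1, differed by 0.31.

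Of 18 tested cyclic AMP and CREB target genes, 10 were higher in 3 of 3 pairs and 2 lower, with a median of 0.21, and 6 were higher and 1 lower at an unadjusted p under 0.05. Pde4b is in this list too. Pde10a differed by 0.62 (SE 0.19), with 68.7, 96.6 and 100.7 against 56.3, 42.9 and 67.6. Sik1, a kinase that restrains CREB coactivators, read 33.5, 22.8 and 45.9 against 25.2, 18.1 and 17.5, its pairs spanned 0.16 to 1.30, and the mean of its probe sets gave 0.22. Dio2, the deiodinase that activates thyroid hormone, differed by 0.44, while Fos, an immediate early factor, differed by -0.29. Dio2 was dim, at 7.8 to 12.6 against 5.5 to 10.9, and the lines overlapped. The list's median was 1.19 and 0.74 in the pH 6.4 pairs, above all 3 medians without acid of 0.20 to 0.26, and that difference of medians was not tested.

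Among 19 tested matrix proteases and inhibitors, 5 were higher in 3 of 3 pairs and 4 lower, and the median was -0.01. Beside Mmp3, no other member differed by more than 1. Mmp2, a gelatinase, read 111.8, 130.8 and 161.9 against 82.4, 97.2 and 110.7, a difference of 0.43. Mmp14, the membrane-type protease that activates pro-Mmp2, read 1067.9, 1037.2 and 1761.6 against 909.2, 929.2 and 1245, a difference of 0.35. Timp1, an inhibitor of these proteases, differed by -0.25. Of 20 tested collagen and matrix genes, 6 were higher and 4 lower in 3 of 3 pairs. Lum and Dcn, small leucine-rich proteoglycans that bind collagen fibrils, differed by 0.60 and 0.48. Lum read 2490.6, 3093.2 and 3963.8 against 1668.1, 2027 and 3159.2, and the 12 h control array was above the 4 h TDAG8 array. Sparc, which encodes a matrix protein that binds collagen, differed by 0.38 and Col6a2 by -0.37.

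Complement had the highest median of the lists in the plot, 0.34 over 8 tested genes, of which 3 were higher in 3 of 3 pairs and 1 lower. Beside C1s1, C1ra, the protease that activates it, differed by 0.48, with signals of 135.7 to 180.2 against 95.1 to 124.3. Clu, a complement inhibitor and chaperone, differed by 0.32. C1s1 and C1ra are neighbours, so their values are not from separate places in the genome. Of 12 tested chemokine and receptor genes, 5 were higher in 3 of 3 pairs and 4 lower, the latter led by Cxcl12. Cxcl10, an interferon-induced chemokine, read 3.8, 5.9 and 7.3 against 13.9, 10 and 22.7, a difference of -1.16 at low signal. Ccl2, which attracts monocytes, read 1455.5, 692.3 and 916.3 against 1209.5, 425.7 and 560.4. It was highest before treatment in both lines, so the groups overlapped while each pair was higher in the TDAG8 line, by 0.41, 0.73 and 0.73. Cxcl3, a ligand of Cxcr2 that is outside the list and was picked after its values were seen, differed by 1.29, with pairs of 1.55, 1.02 and 1.30.

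Of 14 tested antigen presentation genes, 7 were higher in 3 of 3 pairs and 2 lower, with a median of 0.08, and Psmb8, a subunit of the immunoproteasome, differed by 0.51. Of 15 tested interferon response genes, 2 were higher and 5 lower, with Ifit1 at -0.44 and Bst2 at 0.45. Ifit1 was dim, at 8.4 to 20.6 against 12.2 to 25.8, and the lines overlapped. Among 15 tested inflammatory genes 2 were higher and 3 lower, with Lcn2, an iron-carrier protein gene, at -0.63.

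Genes of the cell surface were examined because of the Tmem176 genes. Of 16 tested tetraspan genes, the list of Tmem176a and Tmem176b, 8 were higher in 3 of 3 pairs and 0 lower, with a median of 0.15. No member had an unadjusted p under 0.05 as lower, and 5 as higher. The counts of 8 and 5 include Tmem176a and Tmem176b, because of which the list was examined. Pmp22, a myelin and epithelial membrane protein gene, read 32.3, 39.3 and 41 against 15.2, 17.5 and 21.9, a difference of 0.90. Tspan8, a tetraspanin, read 12.5, 17.8 and 14.7 against 11.7, 4.1 and 1.2, and its pairs ran from 0.06 to 2.25. Of 17 tested integrin and adhesion genes, 9 were higher and 2 lower, with a median of 0.19. Itga6, the integrin subunit that binds laminin, read 1490.8, 1060.3 and 1110.1 against 722.7, 782.5 and 626.3, a difference of 0.82 (SE 0.15). Its 1 other probe set above the filter differed by 0.33. Alcam, an adhesion molecule of the immunoglobulin family, differed by 0.52, and all 4 of its other probe sets had the same sign. Of 12 tested cadherin, connexin and junction genes, 6 were higher and 2 lower. Cdh13, a cadherin with a lipid anchor, differed by 0.51 and Tjp1, a scaffold of tight junctions, by 0.42, against -1.24 for Gjc1. Cdh13 was dim, at 9.3 to 12.5 against 3.5 to 8.3. Gpr153, an orphan receptor gene, read 39.8, 47.2 and 51.4 against 9.7, 10.7 and 4.1, a difference of 2.17, and was the one receptor of its list of 10 tested genes that was this far apart.

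Growth factors and their receptors followed. Of 23 tested receptor tyrosine kinase genes, 9 were higher in 3 of 3 pairs and 5 lower, with a median of 0.15. Met, the receptor of hepatocyte growth factor, read 295, 248.7 and 247.9 against 201.9, 168.7 and 137.7, a difference of 0.64 (SE 0.10). Its ligand gene Hgf differed by 0.50 at low signal, with 6.9 to 11 against 2.7 to 9.1, and the lines overlapped. Egfr differed by 0.48, but neither of its 2 other probe sets had the same sign and the mean of all was 0.10. Tyro3 differed by -0.39. Among 20 tested growth factor genes, 7 were higher and 3 lower: Angpt1, the ligand of the endothelial receptor Tie2, differed by 0.86 and Hbegf, an EGF receptor ligand, by -0.48. Of 16 tested ERK feedback genes 5 were higher and 2 lower, with Spry4 at 0.41 and the phosphatase Dusp5 at -0.60.

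Developmental pathways gave single genes with larger differences than their lists. Wnt5a, a ligand of non-canonical Wnt signalling, read 21.3, 24 and 30.9 against 29.7, 42.1 and 67.1, a difference of -0.81, while 3 of 17 tested Wnt genes were higher and 2 lower in 3 of 3 pairs. Of 16 tested Notch and Hedgehog genes 2 were higher and 5 lower, with a median of -0.17. Ptch1, a Hedgehog receptor that is also a target of the pathway, differed by -0.49, and Nrarp, a Notch target, by 0.72. Of 17 tested TGF-beta and BMP genes 7 were higher and 2 lower, with Tgfb1 at 0.50 and Id2 at 0.38. Peg10, an imprinted gene derived from a retrotransposon, read 138.7, 96.1 and 116.4 against 47.9, 54.9 and 75.4, a difference of 0.92. Of 12 tested sarcomere and Z-disc genes, the list of Myoz2, 3 were higher and 1 lower. Myh3, an embryonic myosin, read 30.7, 28.6 and 31.5 against 0.9, 12.5 and 11.6. The muscle marker Ckm, the only one of 10 that was tested, was also higher in the TDAG8 line, at 47.2 to 51.8 against 8.4 to 29. Its pairs were 0.71, 0.58 and 2.33, with control signals of 27.7, 29 and 8.4 on the matched arrays. The summed signal of the muscle markers was 75.9 to 81.1 against 40.9 to 58.2, and in the TDAG8 line most of it was Ckm. The other 9 were below the filter, and the part of muscle markers in the result was not tested.

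**Figure D3:**
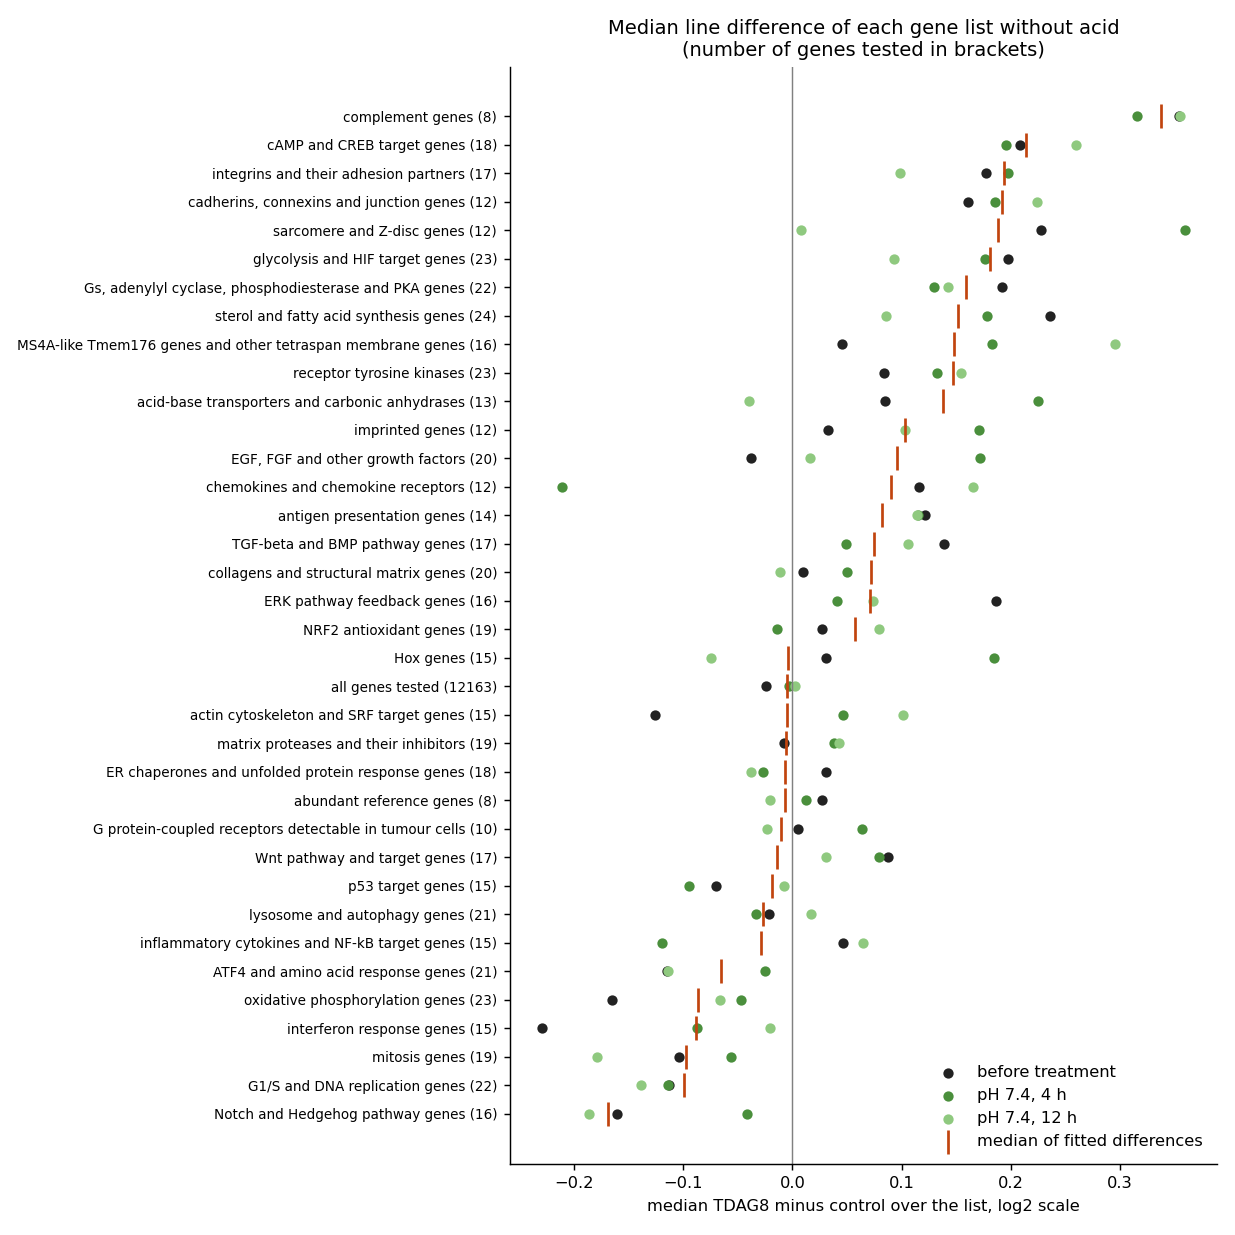
Median line difference (log2 scale) of each gene list with at least 8 tested genes, in each of the 3 pairs without acid (points) and over the fitted differences (orange bars). Complement, cyclic AMP target, integrin and junction genes lie highest and Notch and Hedgehog, G1/S and mitosis genes lowest, with all genes tested near 0.

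Genes of metabolism were examined list by list. Of 23 tested glycolysis and HIF target genes, 15 were higher in 3 of 3 pairs and 0 lower, with a median of 0.18, and 7 were higher and 0 lower at an unadjusted p under 0.05. Pdk1, the kinase that restrains pyruvate entry into the citric acid cycle, read 793.3, 736.9 and 765.5 against 511.2, 574.1 and 564.5, a difference of 0.50. For Pdk1 1 of 3 other probe sets had the opposite sign, and the mean of all was 0.20. Pfkp, a phosphofructokinase, differed by 0.44, but 1 of its 2 other probe sets differed by -0.34 and the mean of all was 0.11. Hk2, a hexokinase, differed by 0.30. Of 24 tested sterol and fatty acid synthesis genes, 18 were higher in 3 of 3 pairs and 0 lower, with a median of 0.15, and 5 were higher and 0 lower at an unadjusted p under 0.05. Insig1, a sterol-regulated brake on SREBP processing, read 668.8, 731.8 and 782.4 against 487.6, 565 and 671.8, a difference of 0.37. Srebf2, the transcription factor of the sterol genes, differed by 0.27. Of 23 tested oxidative phosphorylation genes 1 was higher and 10 lower, with a median of -0.09, led by Ndufs1, a subunit of complex I, at -0.30. The medians of these 3 lists kept their sign in every alternative, between 0.11 and 0.21, between 0.06 and 0.20 and between -0.19 and -0.03 in that order.

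Genes of the cell cycle had small differences, mostly below 0. Of 22 tested G1/S and replication genes 1 was higher in 3 of 3 pairs and 12 lower, with a median of -0.10, and 1 was higher and 6 lower at an unadjusted p under 0.05. Cdt1, which licenses replication origins, and Rrm1, a subunit of ribonucleotide reductase, each differed by -0.35, while Ccnd1, the cyclin of early G1, differed by 0.28. Of 19 tested mitosis genes 0 were higher and 10 lower, with a median of -0.10, and Birc5, which encodes survivin, differed by -0.34. The medians kept their sign in every alternative, between -0.18 and -0.08 for G1/S genes and between -0.18 and -0.06 for mitosis genes. Of 15 tested p53 target genes 2 were higher and 6 lower, with Cdkn1a, the inhibitor of cyclin-dependent kinases, at -0.44 and Phlda3 at -0.52.

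Of 21 tested ATF4 and amino acid response genes 2 were higher and 6 lower in 3 of 3 pairs, with a median of -0.07, and at an unadjusted p under 0.05, 1 was higher and 5 lower. Ddit3, which encodes CHOP, differed by -0.44 and Psph, of serine synthesis, by -0.39. Of 18 tested chaperone genes of the endoplasmic reticulum 4 were higher and 5 lower, with Herpud1 at -0.31. Among 19 NRF2 genes 4 were higher and 3 lower, with Gsta4 at 0.51 and Nqo1 at -0.33. Of 21 lysosome and autophagy genes 6 were higher and 4 lower, with Neu1 at 0.35. Of 13 acid-base genes 5 were higher and 2 lower, and 4 were higher and 2 lower at an unadjusted p under 0.05. Car9, a membrane carbonic anhydrase, differed by 0.53 at signals of 12.8 to 17.7 against 5.1 to 11.9. Hvcn1, a voltage-gated proton channel, differed by 0.37, while Car2, the cytosolic enzyme, differed by -0.72 at signals of 6.9 to 9.1 against 9.1 to 19.4.

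Position in the genome was examined after windows of 21 neighbouring genes had been computed, with the RefSeq GRCm38.p6 gene order. The 3 windows with the lowest medians all lay on chromosome 1, so each chromosome was then summarised, a grouping chosen after these values were seen. The 701 tested genes of chromosome 1 had a median difference of -0.14, against chromosome medians of -0.06 to 0.06 elsewhere. It was -0.15, -0.14 and -0.14 in the 3 pairs without acid and -0.10 and -0.09 in the pH 6.4 pairs. Of its genes, 320 were lower in 3 of 3 pairs (45.6%) and 55 higher (7.85%). In the pH 6.4 pairs, 335 of its genes were lower in both (47.8%), against 30.4% of all genes tested. The shift was small and uneven along the chromosome. In 17 blocks of 40 or more neighbouring genes, 17 medians were below 0 in each of the 3 pairs without acid, and 17 and 16 in the pH 6.4 pairs. The fitted block medians ran from -0.25 (Slc39a10 to Ndufb3) to -0.009 (Atf6 to Mndal), the latter near the -0.0047 of all genes tested. Blocks of other chromosomes were not computed. The median was -0.15 over its genes with a signal of 50 or more and -0.12 for the values as deposited.

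The lowest window on chromosome 1 ran from Ercc5 to Pgap1, with a median of -0.37 and 14 of 21 genes lower in 3 of 3 pairs. Pms1, a mismatch repair gene, read 93.6, 84.1 and 65.8 against 121.4, 122.9 and 108.9, a difference of -0.58. Wdr75, a gene of ribosome biogenesis, read 546.3, 420.5 and 384.5 against 758.6, 646.4 and 581.8, also -0.58. In the pH 6.4 pairs this window's median was -0.07 and -0.13. The window from Kctd18 to Carf had a median of -0.26, with 14 of 21 genes lower, and -0.22 and -0.20 at pH 6.4. That from Zap70 to Rnf149 had -0.24, with 13 of 21 lower, and -0.32 and -0.19 at pH 6.4. Among windows with the highest medians, Phc1 to Tpi1 on chromosome 6 holds C1s1 and C1ra and had 0.21, with 0.38 and 0.26 at pH 6.4. Mpst to Sox10 on chromosome 15 (0.34) and Iffo2 to Slc25a34 on chromosome 4 (0.23) were not higher at pH 6.4, with -0.08 and 0 for the one and -0.09 and -0.08 for the other. These 2 medians also fell with the window size: Mpst to Sox10 gave 0.16 with 11 genes and 0.10 with 41, and Iffo2 to Slc25a34 gave 0.15 with either. With 41 genes the lowest window gave -0.25. On all other chromosomes the share of genes lower in 3 of 3 pairs lay between 12.0% and 32.3%.

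**Figure D4:**
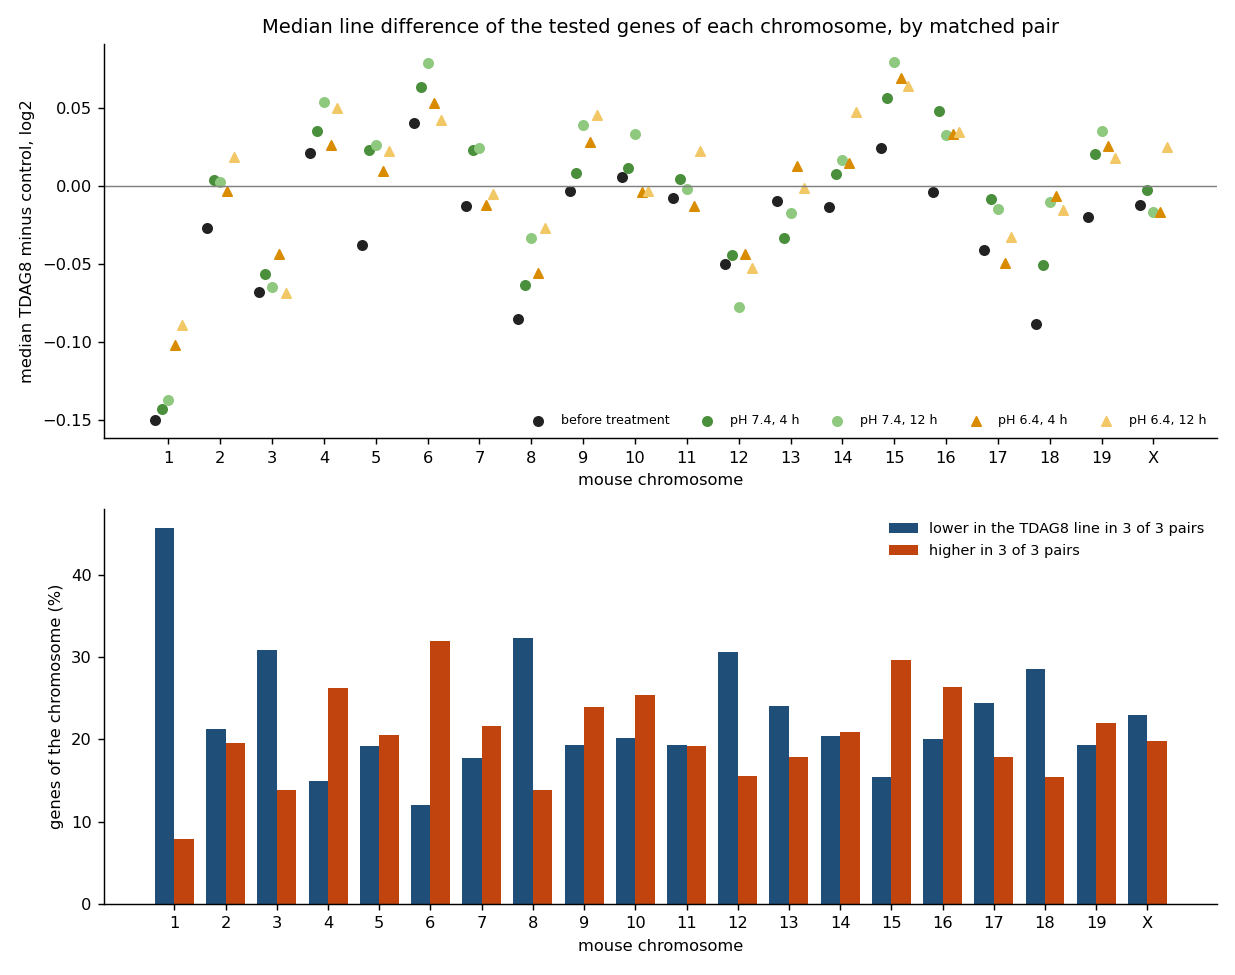
Upper panel, median line difference (log2 scale) of the tested genes of each mouse chromosome in the 3 pairs without acid (circles) and the 2 pairs at pH 6.4 (triangles). Lower panel, the percentage of each chromosome's genes lower (blue) or higher (orange) in the TDAG8 line in 3 of 3 pairs without acid; chromosome 1 has 45.6% lower and 7.85% higher.

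The pH 6.4 arrays were set against these values, since no array is shared. All 15 genes with a difference of at least 1 in every pair without acid and a signal of 50 or more had the same sign in both pH 6.4 pairs. Of all 8403 genes with that signal, 3820 did (45.5%). A difference of at least 1 at pH 6.4 too was seen for 8 of the 15, namely Mmp3, Tmem176a, Tmem176b, C1s1, Acap1, Serpinb6b, Myoz2 and Cxcl12. Acap1 differed by 1.22 and 1.02 and Serpinb6b by 1.05 and 1.14 in acid. Pcdh7 differed by 0.62 at 4 h and 0.03 at 12 h, with 19.6 against 18.5 at 12 h, and both lines were then below their arrays without acid. Across the 8403 genes, the mean difference without acid and at pH 6.4 correlated at 0.51, and at 0.33 across all 12163 genes, as a description over genes.

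The test of the difference itself, the interaction of line with acid over the 10 arrays, passed 0 genes (0%) by limma, with a smallest adjusted p of 0.249 and 3 residual degrees of freedom. At an unadjusted p under 0.05 there were 1093 genes (8.99%), and for 3239 genes (26.6%) the pH 6.4 and the other pairs did not overlap. With a trended, robust variance 27 genes passed. Apart from Rusc2, given below, the genes named for the widest gap between the 2 sets of pairs had small fitted line differences without acid. Nr4a2, an orphan nuclear receptor and CREB target, read 68.9, 84.7 and 50.1 in the TDAG8 line against 58.5, 66 and 47.5 without acid, a line difference of 0.17. At pH 6.4 it read 864 and 361 against 69.1 and 44.5. Without acid all 5 of the other Nr4a2 probe sets above the filter had the same sign, at 0.14 to 0.65.

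The other named genes followed the same order. Without acid the line difference was -0.06 for Apold1, 0.19 for Slpi, 0.35 for Fosl2, 0.12 for Ackr3 and -0.06 for Crem. The Crem value averages unequal pairs of -0.60, -0.11 and 0.53. At pH 6.4 the line difference was 2.50 and 2.29 for Apold1, 2.35 and 2.88 for Slpi and 3.63 and 2.31 for Fosl2. For Ackr3 it was 3.47 and 2.22 and for Crem 2.43 and 2.00. Slpi is a secreted protease inhibitor, Fosl2 an AP-1 subunit, Ackr3 a scavenging receptor of Cxcl12 and Crem a cyclic AMP-responsive factor. Cxcl12 itself was lower in the TDAG8 line in all 5 pairs, with no call for either gene.

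In the other direction Chac1, a glutathione-degrading enzyme of the ATF4 response, differed by -0.08 without acid and by -1.53 and -1.94 at pH 6.4. Egr3 differed by 0.25 without acid and by -1.55 and -0.96 in it, and Cass4 by 0.29 and then -1.63 and -0.85. Pigl, of glycolipid anchor synthesis, differed by 0.17 without acid and by -1.10 and -0.92 in it, and Sigirr, a receptor of the interleukin-1 family, by 0.33 and then -0.53 and -0.57. Rusc2 was the one of these with a wide line difference without acid. It read 72.9, 66.8 and 63.9 in the TDAG8 line against 31.3, 21.5 and 33.3, a difference of 1.13 (SE 0.13, adjusted p = 0.157 by limma), or 0.68 with the mean of all its probe sets. At pH 6.4 the TDAG8 line read 71.1 and 55.5 and the control line 78 and 89. The control signals at pH 6.4 were thus above all control signals without acid.

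**Figure D5:**
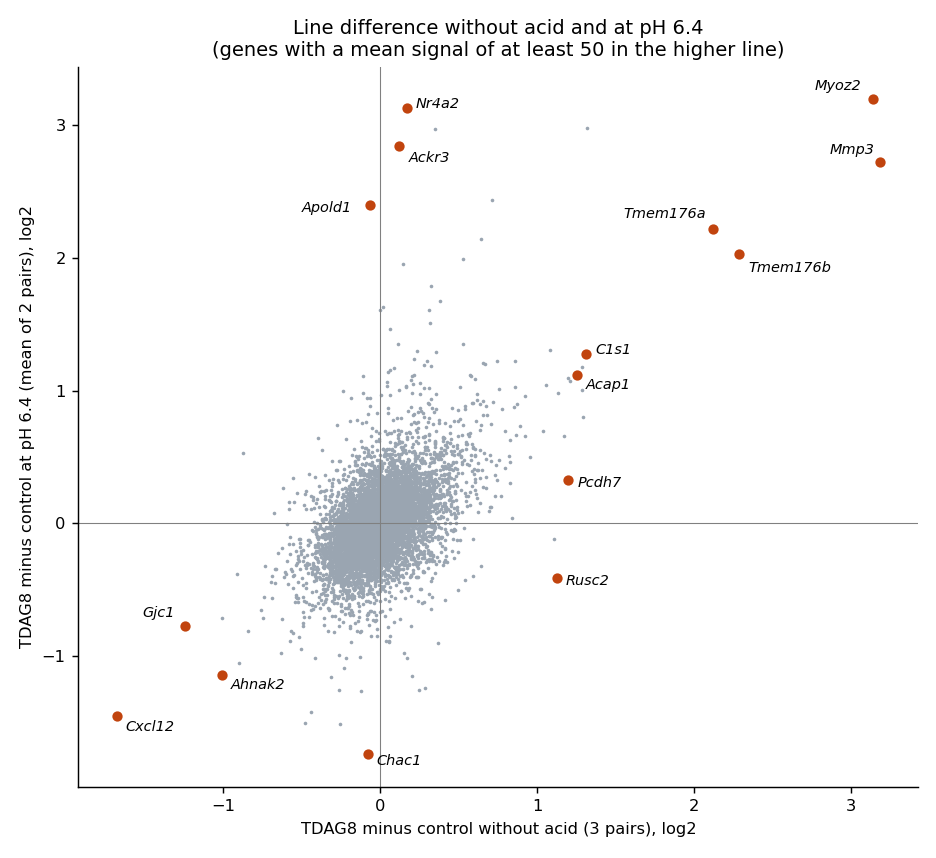
Line difference without acid (x axis, fitted over 3 pairs) and at pH 6.4 (y axis, mean of 2 pairs), log2 scale, for the 8403 genes with a mean signal of at least 50 in the higher line, 1 grey point per gene, with 15 genes labelled in orange. Mmp3, Tmem176a, Tmem176b and Myoz2 lie far out on both axes, while Nr4a2, Ackr3, Apold1 and Chac1 lie near 0 on the x axis.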

How the data were processed

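Affymetrix Mouse Genome 430 2.0 arrays were analysed, 1 for each line and condition. The values are the authors' deposited signal per probe set on a linear scale; the software that made them is not given in the sources used here. Every array had a 2% trimmed mean of 100, with medians of 11.7 to 13.8. Of 45101 probe sets 34945 had 1 gene symbol in the platform annotation, 932 several and 9160 none; the last groups and 64 control probe sets were left out, and 18193 genes remained.

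Arrays were quantile normalised over all 10, log2(signal + 2.36) was taken (2.36 is the 20th percentile), the probe set with the highest mean stood for a gene, and genes at or above the 40th percentile (log2 3.18) were tested, 12163 in all. limma 3.58.1 in R 4.3.3 fitted the line difference with condition as block over the 6 arrays without acid, and the interaction of line with acid over 10 arrays. Benjamini-Hochberg adjustment ran over all genes tested. Scripts were tested on simulated data. Pooled cultures and single arrays limit precision.

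Members, lists and tests were chosen with earlier results of these data known. Named were the 12 leading genes in each direction, by passing and then by smallest difference over the pairs, with a signal of at least 50; up to 4 members of each list with 1 sign in 3 of 3 pairs; and the 6 leading interaction genes in each direction. Predicted genes were skipped. Adcy6, Fos, Ccnd1, Hbegf and Cxcl3 were named outside this rule after their values were seen. Marker genes and neighbours are given as checks. The labels give no batch or scan date.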

Additional observations from a re-analysis of the deposited data

Results flagged for a closer look

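For 12 of the genes named above, every pair without acid had 1 sign of the line difference and both pH 6.4 pairs had the other. None of them passed limma's test of that difference (interaction of line with acid), so the values below are descriptions. The share of all genes tested with such a reversal is not given here. The looser condition, no overlap between these sets of pairs, held for 3239 of 12163 genes (26.6%). Rusc2, Cass4, Egr3 and Sigirr were named for the gap between these sets, and Fos and Ccnd1 after their values were seen. The count of these 12 genes thus follows in part from how they were picked.

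The line difference at pH 6.4 minus that without acid was positive for 5 of them. It was 1.46 for Fos, whose pairs ran from below 0 without acid to above 0 at pH 6.4, and 1.40 for Dusp5, with pairs of -0.30, -0.81 and -0.68 and then 1.13 and 0.46. It was 1.05 for Lcn2, 0.54 for Tyro3 and 0.31 for Timp1.

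It was negative for the other 7. Rusc2 had -1.54, Cass4 -1.53 and Egr3 -1.50, each with an adjusted p of 0.30 or more. Sigirr had -0.88, with pairs of 0.23, 0.29 and 0.47 and then -0.53 and -0.57. Car9 had -0.82, Tgfb1 -0.71 and Ccnd1 -0.65.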

How the results depend on the processing

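The genes past the test numbered 3 (100% higher). They were 37 with arrays centred on the median (81.1% higher), 1 with the values as deposited, 0 with the pseudocount at the 5th percentile (1951 at an unadjusted p under 0.05) and 393 with a pseudocount of 32 (65.1%). Without any filter they were 0 (1958 unadjusted), and stricter filters gave 230 (60th percentile, 67.4% higher) and 367 (signal of 50, 59.9%). A trended, robust variance gave 641 (57.7%), leaving out the block 8 and fitting all 10 arrays 6. Leaving out any 1 pair gave 0 (1389 to 1419 unadjusted), in fits with 1 residual degree of freedom. The cause of these shifts was not tested.

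Genes at least 1 in every pair numbered 29. They were 14 with the pseudocount at the 40th percentile, 4 with that of 32, 55 with no filter, 15 with the 60th percentile, 17 with the signal filter, 19 with the mean of all probe sets, and 53 to 60 without 1 pair, when fewer pairs had to agree in size. Interaction calls numbered 0, but 23 with a pseudocount of 32, 3 with the 60th percentile, 4 with the signal filter and 27 with trend and robust.

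Lgr4 turned to 0.085 with the mean of all probe sets. Differences near 0 also changed sign when 1 pair was left out: Crem ranged from -0.36 to 0.21, Apold1 from -0.19 to 0.095 and Ackr3 from -0.063 to 0.30. Of 574 list medians, 44 changed sign. Averaging every probe set of a gene, dim ones included, moved 20 of 102 named genes by over 1.5 times. Beside those given above, Ddit3 became -0.25, Id2 0.13, Neu1 0.13, Spry4 0.14, Srebf2 0.17, Cdt1 -0.20, Dcn 0.27, Tmem177 -0.32, Cdkn1a -0.78, Rapgef3 0.48, Nr4a2 0.40 and Crem -0.20. Signal over background was not measured. Values under about 50, a limit that was chosen, are to be read with the most caution.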
